A study of Mus musculus with 86 samples.

Results

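The 948 reporter oligos that carry sequence of Cacna1b were followed through 3 assays of a pool of 11955 oligos tiled over 16 mouse genes. They were chosen by name alone: every oligo named for Cacna1b in the localization, binding and stability counts was kept and ordered by its oligo number. The native oligos run without a gap from Cacna1b_1 to Cacna1b_501, and the other 447 are motif-mutated. Each native oligo is 260 nt long and starts 6 nt downstream of the one before it, so that neighbours share most of their sequence and are not independent measurements. A mutated companion exists for each native oligo that holds at least 1 occurrence of TGTGT, of the offset 5-mer GTGTG, or of the 5-mer GTATG, read as they stand in the transcript. In the companion TGTGT was replaced by the letters ACACA, and the other motifs were replaced likewise.

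The reporters were measured in CAD cells, a mouse catecholaminergic neuronal line that grows neurites when serum is removed. In the TetOff cells the endogenous Tardbp alleles, which encode the RNA-binding protein TDP-43, were disrupted with Cas9, and an HA-tagged TDP-43 transgene at a single loxP cassette could be shut off with doxycycline. These lines are single-cell clones. Cells without doxycycline are called wild type (WT) here and cells given 2 µg/mL doxycycline for 48 h are called knockout (KO), so that WT cells also lack intact endogenous alleles and depend on the transgene. The localization assay is a massively parallel reporter assay (MPRA), in which the oligos sat in the 3′ UTR of a GFP reporter and were counted as unique molecular identifiers (UMIs) in soma and neurite fractions, with 4 libraries for each of WT soma, WT neurite, KO soma and KO neurite. RNA Bind-n-Seq (RBNS) counted reads of the transcribed pool held by recombinant TDP-43 on beads, with 1 input library, 1 library at 0 nM protein and 2 each at 5, 50 and 500 nM. SLAM-seq counted T-to-C conversions left by 4-thiouridine (4SU), with 2 WT libraries at 0 h of chase, 3 WT at 12 h, 3 KO at each time and 3 libraries without 4SU. The endogenous gene was read in RNA-seq of soma and neurite fractions, with 3 libraries per group, of CAD and N2A cells (N2A is a mouse neuroblastoma line carrying the same TetOff system) and of CAD cells with an integrated wild-type (WTtg) or Q331K (Q331Ktg) TDP-43 transgene. The labels number the replicates without saying that they were separate cultures, so p-values measure only the spread between these libraries.

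Cacna1b encodes the pore-forming subunit of the N-type voltage-gated calcium channel, which opens at presynaptic terminals and admits the calcium that triggers neurotransmitter release. TDP-43 binds GU-rich RNA through its RNA recognition motifs, and it is known for roles in splicing, RNA stability and RNA transport in neurons. A transcript that accumulates in neurites is often described by its localization ratio (LR), the neurite level over the soma level on a log2 scale.

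The tiled sequence spanned chr2:24603669-24606928 on the minus strand of GRCm38, within and just beyond the gene (ENSMUSG00000004113, chr2:24603887-24763152). By annotation, 60 oligos reached into the coding flank upstream of the stop codon, 404 lay wholly within the 2683 nt 3′ UTR of the transcript Cacna1b-202, and 37 reached past its end. The 3260 nt held 102 overlapping motif occurrences in 24 tracts, 50 of TGTGT, 46 of GTGTG and 6 of GTATG. Most of them stood close together. A 45-base tract at chr2:24604994-24605038 held 41 occurrences and a 31-base tract at chr2:24604881-24604911 held 23, with a 16-base tract at chr2:24604916-24604931 between them. The following stretches are shown because the reporter and binding values below turn on them, with 2 isolated motif sites for contrast. They are in transcript orientation, 5′ to 3′, with motif bases in capitals.
start of the 45 base tract, chr2:24605016-24605045: caggatcTGTGTGTGTGTGTGTGTGTGTGT
end of the 45 base tract, chr2:24604982-24605011: GTGTGTGTGTGTGTGTGTtagcaTGTGTGT
16 base tract, chr2:24604909-24604938: tgcaggtGTATGTGTGTGGTGTGcataTGT
start of the 31 base tract, chr2:24604887-24604916: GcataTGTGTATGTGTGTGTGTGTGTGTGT
isolated GTATG site, chr2:24606036-24606065: caaatagcacatGTATGtagagatgcgctc
isolated TGTGTG site, chr2:24604533-24604562: atgtatacattcTGTGTGgaactacagctg

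These tracts divide the native oligos by sequence alone. No motif was present in 54 oligos, 1 to 5 occurrences in 379, and 6 or more in 68. Of the last group, 13 oligos (Cacna1b_281 to Cacna1b_293) held the whole 45-base tract and no base of the 31-base tract, 18 (Cacna1b_299 to Cacna1b_316) held both tracts whole, 14 (Cacna1b_324 to Cacna1b_337) held the 31-base tract whole and no base of the 45-base tract, and the remaining 23 held part of a tract, alone or beside the whole of the other. The middle oligo of each of the 3 blocks is described with its values. Cacna1b_287 spans chr2:24604953-24605212 and has 52 occurrences, Cacna1b_307 spans chr2:24604833-24605092 and has 81, and Cacna1b_330 spans chr2:24604695-24604954 and has 31.

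MPRA libraries held 7923270 to 12208997 UMIs, RBNS libraries 1806779 to 9646262 reads and SLAM-seq libraries 10782983 to 33024830 reads. All 948 Cacna1b oligos were tested in the MPRA, 478 native and 385 mutated in RBNS, and 432 native and 375 mutated in SLAM-seq. Cacna1b oligos took 7.84 to 7.90% of UMIs in WT soma, 7.56 to 7.64% in WT neurite and 8.09 to 8.15% in KO soma, but 5.45 to 6.01% in KO neurite. MPRA levels are therefore given as CPM, UMIs per 1000000 of a library after TMM scaling, and changes in share that all oligos have in common are given where they matter. In SLAM-seq, KO 12 h replicate 1 stood apart. There T was read as C at 1.37% of positions over the pool, against 0.465 and 0.511% in the other KO 12 h libraries. In the oligos with both tracts, its rates, given below, lay nearer to WT 12 h than to the other KO 12 h libraries. Whether it is mislabelled cannot be told from the labels. SLAM-seq results are given with and without it. The RBNS and SLAM-seq counts used here are of reads and not of UMIs, so reads copied from the same molecule are not set apart in them. In bulk fractions, fewer cells or neurites and less RNA in each cannot be told apart.

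In the soma, 78 native Cacna1b oligos rose after TDP-43 loss and 0 fell at an FDR of 0.01. Over the pool, which here and below counts native and mutated oligos together, 7.55% of 11918 oligos rose and 0.101% fell. Of the 447 mutated Cacna1b oligos, 4 rose and 1 fell. Of these 78, 59 formed 1 unbroken run from oligo 278 to oligo 336, and all 18 oligos that held both tracts were in it. These 18 rose by a median of 1.90 on the log2 scale (range 1.45 to 2.09), where the median over all native Cacna1b oligos was 0.02. The 45-base tract without the other was also followed by a rise, with 13 of 13 oligos past the threshold and a median of 0.85 (0.55 to 1.30). The 31-base tract without the other gave 13 of 14 and a median of 0.78 (0.16 to 1.57). Of the 379 oligos with 1 to 5 motif occurrences, 9 rose and the median was 0.00. The largest soma change, in Cacna1b_316 with 81 occurrences, was 2.09 (SE 0.07, 4.26-fold, edgeR adjusted p = 4.32e-17).

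The neurite fraction gave the same map with larger changes: 72 native oligos rose and 0 fell, against 8.06% and 0.696% over the pool. Of the 447 mutated Cacna1b oligos, 2 rose and 0 fell. Scaled to library totals, where the whole pool shifted by -0.64, 53 native oligos were higher and 418 lower. An unbroken run of 60 oligos, 277 to 336, held most of the 72. The median change was 2.48 (1.86 to 2.87) with both tracts, 1.09 (0.68 to 1.69) with the 45-base tract only and 0.98 (0.17 to 1.86) with the 31-base tract only, and all but 1 of these 45 oligos rose. The change was largest in oligo 315, also with 81 occurrences, at 2.87 (SE 0.09, 7.30-fold, edgeR adjusted p = 4.96e-19). Oligos of other genes reached further, up to 6.88 for a Ksr2 oligo in neurites and 2.81 for a Lrrc47 oligo in soma.

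Read along the UTR in steps of 10 oligos, the change rose and fell with the tracts. The median neurite change was 0.06 in oligos 271 to 280, 1.06 in the next 10, 1.76 in 291 to 300, 2.33 in 301 to 310 and 2.66 in 311 to 320, and came down to 1.53 in 321 to 330, 0.43 in the next 10 and -0.04 in 341 to 350. The soma change followed the same course, from 0.01 in 271 to 280 through 2.03 in 311 to 320 to 0.00 in 341 to 350. Across all native oligos, which overlap, the neurite change had a Pearson's r of 0.95 (Spearman's rho 0.29) with the number of motif occurrences, and among the 433 oligos with fewer than 6 occurrences r was -0.06 (rho -0.04). These are descriptions, since neighbouring oligos share sequence and all share the same 16 libraries.

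The library values show the same in single oligos. Cacna1b_307, with both tracts, stood at 79.1, 75.1, 58.7 and 71.2 CPM in WT soma and at 203, 218, 220 and 195 in KO soma. In neurites it stood at 51.8, 54.5, 61.9 and 52.4 in WT and at 233, 239, 243 and 246 in KO. Every KO library was above every WT library in both fractions, and in WT cells 3 of the 4 neurite values were below all soma values, while in KO cells all neurite values were above all soma values. The soma change was 1.56 (SE 0.07) and the neurite change 2.13 (SE 0.07), with edgeR adjusted p = 8.29e-16 and 6.79e-19. Its mutated companion averaged 21.9 ± 0.685 (SD, n = 4) in WT soma, 25.7 ± 2.45 in WT neurite, 19.1 ± 1.59 in KO soma and 23.5 ± 3.37 in KO neurite, and neither fraction rose.

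Cacna1b_287, with the 45-base tract only, held 223, 212, 193 and 206 CPM in WT soma and 369, 380, 377 and 361 in KO soma. Its neurite values were 190, 205, 201 and 194 in WT and 417, 410, 400 and 402 in KO. Both fractions rose without overlap, by 0.84 in soma and 1.05 in neurite, while its mutated companion averaged 205 to 241 in the 4 groups. Cacna1b_330, with the 31-base tract only, rose from a mean of 98.6 ± 4.05 to 152 ± 2.39 in soma and from 91.5 ± 2.22 to 156 ± 8.45 in neurite (SD, n = 4). Its mutated companion averaged 25.6 to 27.9 in the 4 groups. The first, middle and last oligos of the tiling, Cacna1b_1, Cacna1b_251 and Cacna1b_501, were not past the threshold in either fraction. Cacna1b_251 averaged 15.7 ± 1.18 in WT soma and 15.1 ± 2.07 in KO soma.

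With their motifs mutated, the tract oligos did not pass the threshold. The 18 mutated companions of the oligos with both tracts had a median soma change of -0.08 and a median neurite change of -0.14, with 0 called in either. Over all 68 companions of oligos with 6 or more occurrences, edgeR called 0 in either fraction, DESeq2 also called 0, and at an unadjusted p under 0.05 the soma gave 0 higher and 5 lower and the neurite 1 higher and 12 lower. Non-overlap gave the same picture. All KO libraries exceeded all WT libraries in 96 native oligos in soma (19.2%) and 89 in neurite (17.8%), against 16 (3.58%) and 8 (1.79%) of the mutated oligos. Over the pool, native and mutated oligos together, the shares were 10.3% and 9.52%, so neither version alone has a like background here. Among the oligos with both tracts, 18 of 18 native and 0 of 18 mutated ones had such non-overlap, in each fraction.

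The native over mutated ratio needs no scaling between libraries, because both versions are counted in the same library. The UMIs summed over the both-tract oligos stood at 1.70 to 2.29 times those of their mutated companions in WT soma and 1.07 to 1.49 times in WT neurite. In KO cells the ratio was 6.76 to 7.92 in soma and 6.79 to 7.55 in neurite, with no overlap between genotypes. For the 45-base tract alone it was 0.867 to 0.969 in WT soma, 0.677 to 0.849 in WT neurite, 1.72 to 1.88 in KO soma and 1.70 to 1.90 in KO neurite. For the 31-base tract alone it was 3.28 to 3.59, 2.79 to 3.61, 6.10 to 6.64 and 6.29 to 7.23 in the same order. Oligos with 1 to 5 occurrences kept a ratio of 1.19 to 1.23 in every group. The level of a ratio also holds how much of each version was in the transfected pool, which was not analysed here, so only its change between groups is read.

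A smaller rise stood apart from the tracts. Among oligos 427 to 462 (chr2:24603903-24604372, GC content 29.6 to 33.1%, 0 to 3 motif occurrences), 19 of 36 native oligos rose in soma with a median of 0.33 and 12 rose in neurite with a median of 0.30. This stretch was chosen after its values were seen. Their 26 mutated companions had medians of 0.28 and 0.31, with 4 and 2 past the threshold, so the native and mutated medians lay close together here. The 10 oligos without any motif that rose in soma and the 9 with 1 to 5 occurrences account for the 19 risers outside the run around the tracts. By annotation all 78 soma risers and all 72 neurite risers lay wholly within the 3′ UTR, and 0 of the 60 oligos with coding flank and 0 of the 37 with downstream flank passed in either fraction.

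In the tract oligos the median LR changes were smaller than the median changes in either fraction. At an FDR of 0.01 the LR rose after TDP-43 loss in 29 native oligos, where 5.15% of the pool rose, and fell in 1 (oligo 364), where 0.277% of the pool fell. All 18 oligos with both tracts were among the risers, with a median of 0.58 (0.40 to 0.85). Of those with the 45-base tract only, 3 of 13 rose, with a median of 0.23. The 14 with the 31-base tract only had a median of 0.14, and 0 were called by edgeR and 0 by DESeq2, with 7 higher at an unadjusted p under 0.05. The other 8 risers held parts of a tract. Risers were oligos 286, 292 to 294, 298 to 321 and 323. Their number depended on single replicates: with replicate 1 of every group left out 16 oligos were called in all, and with replicate 2 left out 10. Among the 447 mutated oligos edgeR and DESeq2 each called 0, with 8 higher and 7 lower at an unadjusted p under 0.05 in edgeR.

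The scale of the LR depends on what is held constant between neurite libraries. When libraries were scaled to their UMI totals, the LR change of all oligos shifted by a median of -0.51, and the both-tract oligos had a median of 0.07. On that scale 0 Cacna1b oligos were called higher and 425 lower. The both-tract oligos thus lay above the middle of the pool on either scale, and whether their LR rose in absolute terms turned on the scaling. The soma medians for these oligos were 1.90 with TMM and 1.78 with totals, and the neurite medians 2.48 and 1.86. On the scale of totals all 18 were still called higher in both fractions. Over all native oligos the totals gave 70 higher and 46 lower in soma.

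With TDP-43 present, the median LR of oligos with both tracts was below 0 on the TMM scale. In WT cells 24 native oligos had an LR below 0 past the threshold and 0 above it, against 1.48% and 2.57% of the pool. They were oligos 9, Cacna1b_293, 298 to 304, 307, 308, 310 to 321 and 323. The both-tract median was -0.41, with 15 of 18 called, and that of their mutated companions was 0.25, with 0 called. Leaving out replicate 1 or replicate 2 left 9 calls each. In KO cells the both-tract median was 0.18, and over all native oligos 2 were higher (286 and 306) and 2 lower (1 and 364), against 5.82% and 1.22% of the pool. The paired contrast of native against mutated LR change passed the threshold in 6 of 447 pairs, all with both tracts, against 6.79% of the pool's 4554 pairs, and was lower in 0, against 0.022%. The both-tract median of this contrast was 0.60 (0.39 to 1.42), and the calls were 0 without replicate 1, 1 without replicate 2 and 16 without replicate 3.

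Cacna1b_315 had the largest LR change. It held 69.3, 61.3, 56.4 and 44 CPM in WT soma, 30.4, 39.1, 42.5 and 36.2 in WT neurite, 235, 237, 239 and 223 in KO soma and 278, 276, 271 and 253 in KO neurite. All WT neurite values were below all WT soma values, and all KO neurite values above all KO soma values. The LR change was 0.85 (SE 0.13, edgeR adjusted p = 1.64e-05), and that of Cacna1b_307 was 0.56 (SE 0.10, adjusted p = 1.16e-04 in the same fit). Cacna1b_287 and Cacna1b_330 had LR changes of 0.21 and 0.14 that did not pass (edgeR adjusted p = 0.0832 and 0.322). The next largest LR changes with no overlap between libraries were in Cacna1b_303 (chr2:24604857-24605116, 82 occurrences) and Cacna1b_313 (chr2:24604797-24605056, 81 occurrences), at 0.67 each (edgeR adjusted p = 6e-05 and 0.00199). Cacna1b_303 went from 72.0 ± 12 to 288 ± 13.4 CPM in soma and from 51.8 ± 4.28 to 330 ± 8.17 in neurite (SD, n = 4). Cacna1b_313 went from 30.4 ± 6.68 to 119 ± 3.74 in soma and from 20.7 ± 3.09 to 129 ± 6.51 in neurite. Their mutated companions did not rise, at 53.3 ± 4.78 and 51.1 ± 3.80 in WT and KO soma for the former and 25.2 ± 3.68 and 24.9 ± 2.20 for the latter. The single faller, Cacna1b_364 (chr2:24604491-24604750, 2 occurrences), stood at 51.3, 53.6, 54.0 and 54.0 in WT neurite and at 43.8, 49.5, 44.9 and 44.4 in KO neurite. Its soma values, 47.9 to 56.3 in WT and 52.5 to 58.0 in KO, overlapped, and its LR change was -0.33 (SE 0.08, edgeR adjusted p = 0.00924).

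Over the whole tiling, the share of native Cacna1b oligos that were higher with recombinant TDP-43 lay close to that of the pool. The pool also counts mutated oligos, so these shares cover unlike sets. Of the 385 mutated Cacna1b oligos tested, 29 were higher and 105 lower at 500 nM. Against the single 0 nM library, 63 native oligos were higher and 35 lower at 50 nM, and 116 were higher and 47 lower at 500 nM, of 478 tested (edgeR, FDR 0.05). Over the pool 14.6% were higher and 6.08% lower at 50 nM, and 23.6% and 19.1% at 500 nM. At 5 nM edgeR called 0 native oligos, with 14 higher and 6 lower at an unadjusted p under 0.05, and DESeq2 called 0, where 0.443% of the pool was higher and 0.00922% lower. The counts depended on single libraries: 58 oligos were called at 50 nM without 50 nM replicate 2, 108 at 500 nM without 500 nM replicate 1, and, at 5 nM, 10 without 5 nM replicate 1 and 1 without 5 nM replicate 2.

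Calls at the lower concentration were most frequent with the 45-base tract alone. At 50 nM 12 of 13 oligos with that tract only were higher, with a median of 3.52 on the log2 scale, while 7 of 18 with both tracts (median 2.79) and 2 of 14 with the 31-base tract only (median 0.51) were. At 500 nM the counts were 13 of 13, 14 of 18 and 8 of 14, with medians of 3.51, 3.61 and 1.70. At 500 nM the called oligos formed runs of 27 (275 to 301) and 17 (313 to 329), a run of 12 (172 to 183) lay outside the tracts, and shorter runs lay between 89 and 101 and between 108 and 119, where oligos 92, 99, 109 and 114 were not called. Of the 54 oligos without a motif 0 were higher and 11 lower at 500 nM by edgeR and by DESeq2 alike, with 1 higher and 12 lower at an unadjusted p under 0.05. Of 356 tested oligos with 1 to 5 occurrences, 63 were higher and 36 lower.

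The RBNS enrichment R, an oligo group's share of reads over its share of input reads, put these on a common scale. For the 45-base tract alone R was 0.707 at 0 nM, 1.12 and 2.10 at 5 nM, 4.12 and 7.12 at 50 nM and 4.91 and 6.61 at 500 nM. For both tracts it was 0.673 at 0 nM, 1.02 and 1.77, 3.0 and 3.44, and 4.77 and 5.55. For the 31-base tract alone it was 0.737 at 0 nM, 0.517 and 0.713, 0.632 and 1.17, and 1.77 and 3.08. Oligos with no motif stood at 0.222 and 0.453 at 500 nM. R thus lay well above 1 for the longer tract from 50 nM, and for the shorter tract at 500 nM only.

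Input depth limits single oligos with both tracts. Their input reads had a median of 11.5 (7 to 191), those with the 45-base tract only had 25 to 82 and those with the 31-base tract only 115 to 790. All 18 mutated companions of the both-tract oligos had 0 input reads, and only 5 of them had reads in any RBNS library, at most 12, so native and mutated binding of this block could be compared only for these 5 pairs, of which Cacna1b_300 passed the paired contrast at 500 nM. Cacna1b_287 had 49 reads in the input, 51 at 0 nM, 68 and 24 at 5 nM, 125 and 429 at 50 nM and 502 and 207 at 500 nM. Its R was 0.922 at 0 nM, 3.49 and 6.47 at 50 nM and 6.40 and 4.29 at 500 nM, above 1 in all 4 of the latter libraries. Cacna1b_307 had 10 reads in the input, 1 at 0 nM, 14 and 0 at 5 nM, 10 and 25 at 50 nM and 68 and 39 at 500 nM, with R of 4.25 and 3.96 at 500 nM. Cacna1b_315 had 0 reads at 0 nM and 138 and 75 at 500 nM, at least 32.4- and 28.6-fold higher than a floor of 3 counts in that library. Cacna1b_309, also with both tracts, had 14 reads in the input, 1 at 0 nM, 9 and 9 at 5 nM, 33 and 37 at 50 nM and 131 and 52 at 500 nM. Cacna1b_433 (chr2:24604077-24604336, 3 occurrences) had 38 input reads, 0 at 0 nM and 18 and 16 at 500 nM, at least 4.23- and 6.11-fold above the same floor, although its R was only 0.296 and 0.427. Its rise over the 0 nM library therefore came without enrichment over the input.

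The strongest falls were in oligos without motifs. Cacna1b_346 (chr2:24604599-24604858, 0 motifs) went from 249 reads at 0 nM and 406 in the input to 16 and 25 at 500 nM (log2 change -3.29, edgeR adjusted p = 0.00103). Its neighbour Cacna1b_347 went from 213 at 0 nM and 447 in the input to 21 and 25 (log2 change -2.92, edgeR adjusted p = 0.00416). Cacna1b_39 (chr2:24606441-24606700, 0 motifs, GC content 61.5%) had 288 input reads, 767 at 0 nM, 345 and 227 at 5 nM, 391 and 357 at 50 nM and 138 and 60 at 500 nM (log2 change -2.76, edgeR adjusted p = 6.05e-05). It was the only one of these with more reads at 0 nM than in the input.

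Where motifs were few, native oligos were held more than their mutated companions in pooled R, though not in every stretch. At 500 nM, native oligos with 1 to 5 occurrences had a pooled R of 0.939 and 1.01 and their mutated companions 0.651 and 0.665. The paired contrast was higher for the native version in 45 pairs and lower in 1 (oligo 214) of 413, against 8.23% and 1.38% of the pool's 4215 pairs, and 41 of the 45 were pairs with 1 to 5 occurrences. In all, 17 pairs were called without 500 nM replicate 1 and 25 without 500 nM replicate 2. Among the 360 pairs with fewer than 6 occurrences this contrast had r = 0.52 (rho = 0.62) with the number of occurrences. The paired contrast of LR change had r = -0.03 (rho = 0.02) over 379 such pairs. Unpaired, the change at 500 nM of 410 such native oligos had r = 0.20 (rho = 0.22) with their occurrences, and their neurite change had r = -0.06. Among all mutated oligos, 29 were higher and 105 lower at 500 nM, of 385 tested. Of the 28 tested mutated companions of oligos with 6 or more occurrences, 7 were higher and 0 lower. Their depth was low. The mutated versions had a median of 1.0 input reads for the 45-base tract alone and 8.5 for the 31-base tract alone. A native excess in binding is therefore not shown for most single tract oligos. The remaining pairs called higher, Cacna1b_300 among them, held 6 or more occurrences. Pooled over oligos 251 to 300, R at 500 nM was 1.69 and 1.62 native and 0.530 and 0.595 mutated. For oligos 301 to 350 it was 1.58 and 2.37 against 0.241 and 0.643, with 27 mutated oligos listed. Both stretches also hold oligos outside the tracts.

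The first 50 oligos behaved otherwise. At 0 nM, without protein, their R was already 1.58 for native and 1.62 for mutated oligos. At 50 nM it was 3.63 and 2.82 for native and 4.48 and 4.30 for mutated oligos, and at 500 nM it was 0.967 and 0.688 for native and 1.69 and 1.18 for mutated oligos. All of these oligos reach into the coding flank, the later ones with part of the 3′ UTR, and the stretch has a median GC content of 61.3%. Of all 44 mutated oligos that reach into the coding flank, 28 were higher at 50 nM (median 1.75), and of the 60 native ones 20 were (median 0.89), but at 500 nM 0 native ones were higher and 19 lower. Over the 478 native oligos tested, the change at 50 nM had rho = 0.61 (r = 0.41) with GC content, as a description over overlapping oligos. In oligos 51 to 100 and 101 to 150 the native version was the higher at 500 nM, with R of 2.05 and 1.82 against 0.560 and 0.581 for the mutated in the former and 1.09 and 1.08 against 0.345 and 0.364 in the latter. Of oligos 51 to 100, only 31 native and 29 mutated ones were listed in the RBNS counts. In oligos 201 to 250, with a median of 1 occurrence, the native version was not the higher. Its R at 500 nM was 0.884 and 1.08, against 1.04 and 1.13 for the mutated. Oligos 351 to 400 were low in both versions, at 0.201 and 0.423 native and 0.176 and 0.362 mutated. Binding at 500 nM and the neurite change in cells had r = 0.61 and rho = 0.38 over 478 native oligos. The stretches 89 to 101, 108 to 119 and 172 to 183, with runs called at 500 nM, held no oligo that passed the threshold in soma, neurite or LR.

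In SLAM-seq the label on Cacna1b oligos fell over the chase, as it did over the pool. The log2 change of the T-to-C rate from 0 h to 12 h had a median of -0.76 over 432 native oligos in WT cells and -1.69 in KO cells, against -0.71 and -1.50 over the pool. In KO cells 429 of 432 fell (pool 97.2%). In WT cells edgeR called 0, with 57 lower at an unadjusted p under 0.05, and limma called 1, where 0.00946% of the pool was lower. The KO minus WT difference of these changes, the stability change, had a median of -0.92 (pool -0.79). EdgeR and limma called 0 of it (pool 0.0%), with 12 lower at an unadjusted p under 0.05 in edgeR. At 0 h the label differed between KO and WT by a median of -0.05.

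Without KO 12 h replicate 1 these calls changed. The fall in WT cells was then called in 426 of 432 native oligos (97.0% of the pool), and that in KO cells in 432 with a median of -2.28 (pool -2.03, 99.7%). The stability change was lower in 425 of 432, with a median of -1.50, against 96.3% and -1.33 over the pool, so that nearly all reporters shared it. For the both-tract oligos it was -1.58 native and -0.70 mutated. For the 45-base tract alone it was -1.50 and -1.09, and for the 31-base tract alone -1.70 and -1.12. The paired contrast was lower in 16 of 374 pairs, 4.28% against 1.06% of the pool's 3865, and these were Cacna1b_294 to Cacna1b_307, Cacna1b_309 and Cacna1b_317. With all libraries edgeR called 0 pairs (pool 0.0%), 0 also at an unadjusted p under 0.05, and limma called 0 with 7 lower and 7 higher at that p.

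The rates behind this contrast differed between versions before any chase. Both-tract native oligos had T-to-C rates of 1.28 to 1.34% in WT at 0 h, 0.762 to 0.843% in WT at 12 h, 1.26 to 1.38% in KO at 0 h, and 0.926, 0.267 and 0.293% in KO at 12 h. Their mutated companions had 2.40 to 2.41%, 1.68 to 1.96%, 2.23 to 2.29%, and 1.89, 1.09 and 1.09%. Without 4SU the native rate was 0.185 to 0.25% and the mutated rate 0.38 to 0.508%, so the mutated companions also had more conversions without label. The native 0.267 and 0.293% in KO at 12 h lay close to the native rate without 4SU. The mutated 1.09% lay above its own. Log2 changes of the native version in these libraries are therefore read near a floor. The mutation takes T positions out of these oligos. In an alternative with all libraries, each oligo's rate without 4SU was subtracted, but not in the fit without KO 12 h replicate 1. The part of the difference in unlabelled conversions in the contrast of that fit was not tested. Cacna1b_307 read 1.15 and 1.17% in WT at 0 h, 0.747, 0.789 and 0.779% in WT at 12 h, and 0.810, 0.304 and 0.364% in KO at 12 h, with the high KO value in replicate 1.

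The endogenous gene was measured in the same fractions to see whether its localization moved with TDP-43 in 2 lines. Tardbp, the targeted gene, fell in KO cells of both: from 537 ± 28.5 to 93.8 ± 4.06 CPM in CAD soma and from 579 ± 29.1 to 169 ± 9.54 CPM in N2A soma (SD, n = 3). Of the neuronal markers, Tubb3, Snap25, Stmn2 and Map2 were high in CAD (median TPM 329, 144, 175 and 21.7) and N2A (284, 119, 140 and 15.5), and Rbfox3 was near 0 in both (0.0138 and 0.025). Of the catecholaminergic markers in CAD, Dbh had a median of 13.2 TPM and Th of 1.15, with Ddc at 0.553. Dbh, the enzyme that makes noradrenaline, was higher in KO than in WT libraries of CAD cells, at 10.0 to 19.2 TPM in WT soma against 34.6 to 52.3 in KO soma and at 2.66 to 4.88 in WT neurites against 12.4 to 13.7 in KO neurites, and its part in the Cacna1b values was not tested. Gfap, Aif1, Mbp and Col1a1, markers of other cells, had medians of at most 1.64 TPM.

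Cacna1b RNA fell in CAD neurites and not in CAD soma. In WT soma it stood at 87.7, 81.4 and 88.7 CPM and in KO soma at 102, 77.4 and 70.5, which overlapped. In WT neurites it stood at 53.4, 45.4 and 44.9 and in KO neurites at 21.8, 24.6 and 27.8, which did not. The neurite change was -0.95 (SE 0.12, edgeR adjusted p = 1.6e-05), where 11.8% of 17343 genes rose and 13.5% fell. The soma change was -0.05 (SE 0.11, edgeR adjusted p = 0.816), where 11.2% rose and 11.6% fell. The LR change was -0.91 (SE 0.17), just outside the FDR of 0.01 (edgeR adjusted p = 0.0132), where 0.225% of genes rose and 0.208% fell, and leaving out replicate 1 gave -0.58 and leaving out replicate 3 -1.17 (edgeR adjusted p = 0.0516 and 0.00764). With the replicate numbers as a block the LR change passed the threshold, so its call depended on whether they were taken as pairs.

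In N2A the soma level fell and the neurite level did not. WT soma held 165, 160 and 145 CPM and KO soma 110, 112 and 108, without overlap. WT neurites held 42.4, 40.4 and 44.3 and KO neurites 43.2, 39.3 and 60.4, with overlap. The soma change was -0.51 (SE 0.12, edgeR adjusted p = 0.005), where 10.9% of genes rose and 5.15% fell. Without replicate 1 or 2 it was -0.48 and -0.41 and did not pass (edgeR adjusted p = 0.0342 and 0.159). The neurite change was 0.17 (edgeR adjusted p = 0.386), where 6.48% rose and 5.1% fell. The LR change was 0.68 (SE 0.17, edgeR adjusted p = 0.0363), where 0.0893% rose and 0.0112% fell.

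The LR itself moved in opposite ways in the lines. In CAD it was -0.72, -0.84 and -0.98 in WT and -2.22, -1.66 and -1.34 in KO. In N2A it was -1.96, -1.99 and -1.71 in WT and -1.35, -1.51 and -0.84 in KO. WT and KO did not overlap in either line, and the lines' LR ranges were apart in WT cells but overlapped in KO cells. That the gene moved in opposite ways in the lines was known when it was taken up here, so the size of the difference is given as a description. The LR change in CAD minus that in N2A was -1.56 (SE 0.25), where 0.102% of 19700 genes passed the FDR of 0.01 in each direction, and it was -1.28 without replicate 1 and -1.67 without replicate 2, neither of which passed. The difference of the neurite changes was -1.17 (SE 0.18), where 2.94% passed higher and 6.23% lower. With the Q331K transgene against the wild-type transgene the LR change was -0.13 (edgeR adjusted p = 0.999), where 0.0% of genes passed.

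The transcripts of Cacna1b that end at the stop codon and those with the long 3′ UTR took different shares of the gene's TPM. The tiled UTR belongs to Cacna1b-202 and Cacna1b-204, which held 19.5 to 21.7% in CAD WT soma and 36.6 to 48.2% in KO soma, and 24.6 to 32% in WT neurites and 60.9 to 88.7% in KO neurites. The transcripts Cacna1b-201 and Cacna1b-205, whose models have no 3′ UTR, held 31.4 to 44.5% and 3.25 to 14.2% in CAD soma, and 46.9 to 55.4% and 0 to 8.41% in CAD neurites. N2A soma showed the same order, with the long UTR at 18.9 to 23.1% in WT and 31.6 to 52.6% in KO. In N2A neurites the long UTR held 24.5 to 32.1% in WT and 30.8 to 54.9% in KO, and these overlapped. The transcripts that end at the stop codon held 26.3 to 34.4% in WT and 13.2 to 22.4% in KO in N2A soma. In N2A neurites they held 24.4 to 36.8% in WT and 11.1 to 14.5% in KO. In TPM the long-UTR transcripts stood at 0.730, 0.897 and 1.14 in CAD WT neurites and at 1.14, 1.32 and 1.40 in KO neurites, while those that end at the stop codon stood at 1.39, 1.93 and 1.79 in WT and at 0.0806, 0 and 0.194 in KO. The lower gene total in CAD KO neurites thus came with lower values of the transcripts without the tiled UTR and not of those that carry it. The same shift stood in CAD soma, where the gene level overlapped between genotypes. There the long-UTR transcripts had 4.53 to 6.05 TPM in WT and 8.62 to 10.1 in KO. Those that end at the stop codon had 9.31 to 11.6 in WT and 0.657 to 3.92 in KO. Salmon splits reads among overlapping models, so these shares are estimates, given without a test.

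Other genes named as voltage-gated calcium channel subunits gave a background for the gene. They were listed by name, and whether each, the gamma members among them, serves a calcium channel was not tested. Of 25 genes besides Cacna1b listed under pore, beta, alpha-2-delta and gamma subunit names, 18 were tested in CAD. In CAD neurites 7 fell and 1 rose (13.5% and 11.8% of all genes), with a median of -0.49 against 0.0 over all genes. The fallers were the pore subunits Cacna1a (P/Q type, -0.49), Cacna1c (L type, -0.50) and Cacna1h (T type, -0.91), the beta subunits Cacnb1 (-0.48) and Cacnb3 (-0.69), the alpha-2-delta subunit Cacna2d2 (-0.56) and, among those with gamma names, Cacng4 (-0.76). The riser was Cacng7 (0.42), also with a gamma name. In CAD soma 2 rose and 4 fell, with a median of -0.27, where 11.2% and 11.6% of all genes did. In N2A 17 were tested: 1 fell and 0 rose in neurites (Cacnb1, -0.45), against 5.1% and 6.48% of all genes, and 2 rose and 0 fell in soma (Cacnb3, 0.50, and Cacng7, 0.57), against 10.9% and 5.15%. The counts of risers in both lines and of fallers in N2A are too small to set apart from those shares. For LR edgeR called 0 subunits in either line, with medians of -0.22 in CAD and 0.07 in N2A. DESeq2 called 0 in CAD and 1 lower in N2A, and at an unadjusted p under 0.05 edgeR gave 2 higher and 7 lower in CAD and 5 higher and 2 lower in N2A. The CAD minus N2A difference of neurite changes was lower in 4 of 20 tested subunits, against 6.23% of all genes (Cacna1a, Cacna1c, Cacnb3 and Cacng4).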

How the data were processed

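The values came from mouse MPRA, RBNS, SLAM-seq and RNA-seq libraries, grouped by their labels. The oligos, motif groups and gene lists were chosen with earlier results of these data known. Reporter reads were trimmed with cutadapt and aligned to the oligo sequences with bowtie2 by the authors, who deposited counts per oligo: unique UMIs and reads for the MPRA, reads for RBNS, and reads with T positions read as T or C for SLAM-seq. For RNA-seq the authors ran Salmon on mm10 transcripts and deposited estimated counts and TPM per transcript; the Salmon version is not given in the sources used here. Estimated counts were summed to genes and rounded, and transcripts without a gene in the annotation used were left out (0.0737 to 0.129% of estimated counts). RNA-seq libraries held 9783050 to 32895500 estimated counts.

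The native oligos were placed on GRCm38 by exact match. Motif occurrences were counted with overlaps on the transcript strand. Tests were edgeR's quasi-likelihood tests (edgeR 4.0.16 in R 4.3.3) with TMM scaling, a filter on low counts by group, and Benjamini-Hochberg adjustment over all oligos, pairs or genes tested, at an FDR of 0.01 for MPRA and RNA-seq and 0.05 for RBNS and SLAM-seq. The whole MPRA (16 libraries) shared 1 estimate of the spread. The LR change is the KO minus WT difference of neurite minus soma. Because RBNS had 1 library at 0 nM, the spread came from the paired libraries at 5, 50 and 500 nM. SLAM-seq tests compared T read as C with T read as T, for oligos with at least 1000 T positions in each of the 11 labelled libraries. Paired contrasts set each native oligo against its mutated companion in the same libraries. DESeq2 1.42.0 and limma 3.58.1 (log2 rates or ratios with a pseudocount of 0.5) were alternatives. Further alternatives were other scalings and filters, another FDR, replicate blocks and leaving out each replicate. Simulated counts were first used to try the MPRA LR change and its paired contrast, RBNS at 500 nM, the SLAM-seq stability change and the CAD gene LR change. The other contrasts were not simulated. Mutated sequences and human libraries were not used here.

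Oligos named with values were, by rule, the middle oligo of each tract block with its companion, the first, middle and last oligo of the tiling, and up to 3 of the largest rises and falls past the threshold without overlap for LR change, RBNS at 500 nM and stability change, where the last had none. Genes named were Cacna1b, Tardbp, markers and the calcium channel subunits past the threshold. The study's LR test for genes, xtail, was replaced by an edgeR interaction. Coding and downstream flanks were set by the annotation of Cacna1b-202 rather than by oligo number.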

Additional observations from a re-analysis of the deposited data

Results flagged for a closer look

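For 7 of the 132 groups of 4 MPRA libraries examined, 1 library lay far from the other 3, about as many as chance gives at 1 in 20 groups. Cacna1b_39 stood at 38.6 CPM in KO neurite replicate 4, with the others at 48.5 to 49.2. Cacna1b_433 stood at 9.65 in KO soma replicate 1, with the others at 13.8 to 14.6. Smaller gaps were the 13.2 of Cacna1b_251 in WT neurite replicate 2, the 60.3 of its mutated companion in KO soma replicate 2, and the 51.3 of Cacna1b_364 in WT neurite replicate 1. The 73.7 of Cacna1b_501 in WT neurite replicate 2 was high against 72.2 to 72.3. The native over mutated ratio of oligos with 1 to 5 motif occurrences was highest at 1.23 in KO soma replicate 3, against 1.20 to 1.21. The gaps of Cacna1b_501 and of this ratio were small in absolute size.

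For the endogenous gene, the difference between lines passed the threshold for the LR change (CAD minus N2A -1.56) and for the neurite change (-1.17). The opposite movement was known beforehand, so this is no independent support for it. The LR change was negative in CAD and positive in N2A, while the neurite change was -0.95 in CAD and 0.17 in N2A.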

How the results depend on the processing

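Of the alternatives run on the main results, 201 values kept their direction and side of the threshold or stayed within 1.5 times the main count. The others follow. Scaling to library totals gave 425 LR calls (30 in the main test; all lower) and 471 neurite calls (72; 53 higher, 418 lower), with all-oligo shifts of -0.51 and -0.64. Leaving out each replicate gave 10 to 31 LR calls, 9 to 24 calls for LR in WT cells (24), and 0 to 16 for the motif effect on LR change (6), which had 16 calls at an FDR of 0.05. For RBNS it gave 0 to 10 at 5 nM, 58 to 147 at 50 nM (98), 108 to 185 at 500 nM (163) and 17 to 51 for the motif effect (46). An FDR of 0.01 gave 53, 96 and 19 for the last 3. Against the input, 50 nM had 190 calls, and limma gave 91 for the motif effect. For SLAM-seq, leaving out libraries gave 0 to 426 calls for label loss in WT cells, 419 to 432 in KO cells, 0 to 425 for the stability change and 0 to 16 for the motif effect. Label loss in WT cells had 1 call with limma and 1 relative to the library median. The latter gave 90 calls in KO cells, where Cacna1b_307 turned to 0.13. The cause was not tested.

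For the CAD LR change of Cacna1b, an FDR of 0.05 called -0.91, DESeq2 -0.92 and the unfiltered test -0.88, and leave-one-out values ran from -1.17 to -0.58. For N2A, 0.68 was called at an FDR of 0.05, 0.61 by DESeq2 and 0.66 without the filter, with 0.51 to 0.71 on leave-one-out. The N2A soma change ran from -0.49 to -0.41 and the line difference from -1.69 to -1.28.

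Replicate numbers were not taken as pairs, because not every same-number correlation exceeded 0.1: 7 of 24 did in the MPRA, 2 of 6 in RBNS, 1 of 15 in SLAM-seq and, with most above it, 13 of 18 in CAD and 14 of 18 in N2A (up to 0.54 and 0.50). A replicate block gave a CAD LR change of -0.89, past the threshold, and 122 RBNS calls at 500 nM. In RBNS the 500 nM numbers may be crossed; with the block crossed, an alternative added after seeing the data, the motif effect had 71 calls and 500 nM had 169. Depth limits the both-tract oligos in RBNS, and the single 0 nM library, the 2 libraries per concentration and the KO 12 h library that stood apart limit those calls.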
